A study of Xenopus laevis with 11 samples.

Results

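Medium-width H3K4me3 peaks with p300 are H3K4me3 peaks of at least 600 and under 2500 bp on the L and S chromosomes of Xenopus laevis that share at least 1 bp with a p300 peak. There were 3443 of them among 22191 H3K4me3 peaks on these chromosomes, or 15.5%. They were selected on measured values, the width of the H3K4me3 peak and its overlap with p300, so neither is a finding about them. Peaks came from chromatin immunoprecipitation and sequencing (ChIP-seq) of whole, untreated embryos in pools of 35 to 90. The stage was 10.5 on the Nieuwkoop-Faber scale, the early gastrula. Each target had 2 replicates. The labels do not say whether these came from separate clutches, so the spread between them may be technical. Of the 11 samples of the series, 4 were used (H3K4me3 and p300, replicates 1 and 2), and the 7 others (H3K4me1, H3K36me3, RNA polymerase II and input) were not analysed here.

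H3K4me3, trimethylation of lysine 4 on histone H3, is laid down around transcription start sites and marks promoters that are active or poised. p300 is a histone acetyltransferase recruited by transcription factors, and it acts as a coactivator at enhancers and at promoters. Transcription factors and their coactivators usually sit in stretches of DNA with few nucleosomes, and the methylated histones lie in the nucleosomes beside them. At the early gastrula the embryo transcribes its own genes and its germ layers are being specified. Xenopus laevis is allotetraploid, and each of its chromosomes exists as a longer L and a shorter S homeolog that descend from different ancestors. An embryo holds many cell types, so H3K4me3 and p300 at the same place need not come from the same cells.

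The series-wide lists hold the base-exact overlap of the replicate calls, so a series-wide peak is the stretch that both replicates cover. On all sequence, replicate 1 and replicate 2 had 32821 and 27267 H3K4me3 calls, and 35127 and 58614 p300 calls. The lists carry positions and no signal, so nothing below measures how strongly a mark was enriched, and read depth is unknown. Gene names and DNA sequence could not be given, because the genome build of the files is not named and no genome of it was at hand. Positions are 1-based in that unnamed build, and no annotation of exons, introns or start sites could be attached to them.

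Of the 15244 medium-width H3K4me3 peaks, 22.6% held p300 (Wilson 95% interval 21.9 to 23.3%). Among H3K4me3 peaks of any width on these chromosomes the share was 25.2%. The share with p300 was 17.3% for peaks of 600 bp to under 1000 bp, 21.2% from there to under 1500 bp, 27.2% to under 2000 bp and 34.7% to under 2500 bp. These 4 width bins are written below as 600 to 1000, 1000 to 1500, 1500 to 2000 and 2000 to 2500 bp. For domains of 2500 bp or more it was 58.0%, from 1363 of 2352. A wider peak offers more bases for an overlap of 1 bp, and the rule used both quantities, so this gradient is a description with no test. Peaks under 600 bp are outside this gradient, and 791 of them held p300, while 11801 medium peaks held none. The latter and the 1363 broad domains with p300 serve below as comparison sets.

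Members at the bounds of the rule were close in width or contact to peaks just outside it. The narrowest member, chromosome 8S at 98213272 to 98213871, was 600 bp wide, and the first by position of 4 peaks with p300 just below the bound, on 1L at 195704561 to 195705159, was 599 bp wide. The widest member, on 5L at 137764570 to 137767067, was 2498 bp wide, and the nearest above the bound, on 8L at 57931313 to 57933814, was 2502 bp wide. The smallest p300 overlap was 1 bp, in a peak on 2S at 136081317 to 136083299 that also held a second p300 interval. A medium peak on 9_10L at 64651845 to 64652695 stayed outside because the nearest p300 interval ended at its border without sharing a base. Small overlaps were rare, as 124 members (3.60%) had an overlap of under 50 bp as their smallest. This count can include short p300 intervals lying inside a member, and members that also held a larger overlap. It is thus not a count of members with an edge contact alone. Of the medium peaks without p300, 76 had a p300 interval within 100 bp.

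The absence of p300 depended in part on the requirement that both replicates call it. Of the 11801 medium peaks without p300, 8851 touched a p300 call of neither replicate. Another 1104 touched a call of replicate 1 only, 1746 a call of replicate 2 only, and 100 touched calls of both that did not overlap each other. The comparison set is therefore a set without a shared p300 peak, and some of its peaks carried a call in a single library.

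The members had a median series-wide width of 1348 bp, with quartiles of 1007 and 1780 bp, and together covered 4.87 Mb. The replicate calls behind them were wider. The replicate 1 calls had a median of 1765 bp (quartiles 1297.5 and 2342 bp), and the replicate 2 calls a median of 1416 bp (1039 and 1883.5 bp). Replicate 1 was the wider call at 2783 members (80.8%), and at 2104 members (61.1%) the series-wide peak was the replicate 2 call to the base. The series-wide peak equalled the replicate 1 call at 194 members (5.63%), so the exact extent followed replicate 2 more often. Both calls were of medium width at 2665 members (77.4%), whereas 691 members (20.1%) had a replicate 1 call of 2500 bp or more and 39 (1.13%) had such calls in both replicates. The narrowest member is an example, since its replicate 1 call spanned 3099 bp and its replicate 2 call 600 bp.

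**Figure D1:**
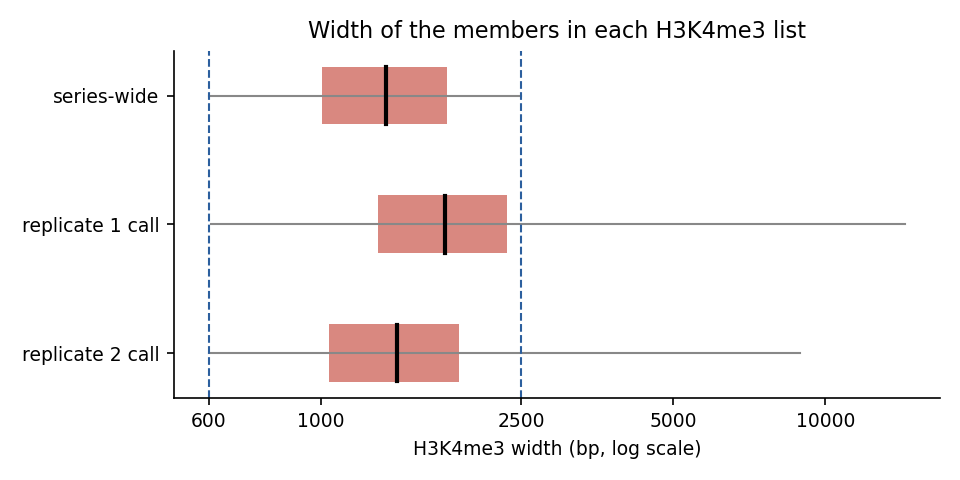
Width of the 3443 members in the series-wide H3K4me3 list and of the replicate 1 and replicate 2 calls that contain them, in bp on a log scale; boxes span the quartiles, black bars are medians, thin lines run from lowest to highest, and dashed lines mark 600 and 2500 bp. The replicate 1 calls have the highest median, 1765 bp, and reach 14379 bp.

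The agreement of the replicates on the extent of a peak, taken as the series-wide width as a percentage of the stretch covered by either call, had a median of 79.4% at members and 80.4% at medium peaks without p300. Averaged over the 9 homeologous chromosome pairs the members were lower by 1.05 percentage points (a difference of -1.05 ± 1.23, SD), with 1 pair above 0. Flipping the signs of the 9 pair differences in all ways (an exact permutation test, two-sided) gave p = 0.0352, and 0.0402 after Benjamini-Hochberg adjustment over the 8 planned tests. The difference was 0.13 percentage points in the other direction when only peaks that were the single series-wide interval of their calls were kept, with an adjusted exact permutation p of 0.821. With classes from the replicate 2 lists it was -0.30 (adjusted exact permutation p = 0.482), and with those from replicate 1 it was -2.93. With widths matched in 4 bins it was -2.14 (1 of 9 pairs above 0, adjusted exact permutation p = 0.00893). By chromosome it ran from -6.88 on 8S to 1.63 on 4L. It was higher on L than on S by 2.11 ± 2.87 percentage points (SD, 7 of 9 pairs above 0), a spread larger than the mean. It is thus a small difference that varied between chromosomes. It also depended on the list, on the widths compared and on peaks whose calls were cut into pieces. Such single intervals made up 92.3% of the members and 96.2% of the medium peaks without p300.

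Most members held a single p300 interval. There were 3032 members with 1 interval (88.1%), 367 with 2, 40 with 3 and 4 with 4. Of the 411 members with more than 1, 305 (74.2%) also touched more than 1 p300 call in each replicate separately, and 106 touched a single call in at least 1 replicate. Adjacent p300 centres in a member lay a median of 578 bp apart (quartiles 412 and 882.5 bp, n = 459). Members with more p300 intervals were wider, with a median of 1304 bp for 1 interval, 1666 bp for 2 and 2020.5 bp for 3 or 4.

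Of the 4 members with 4 p300 intervals, 3 are described, taken by flanking p300 and then by position. A peak of 2389 bp on 2L at 149665654 to 149668042 held 4 p300 intervals, with 4 calls in each replicate. A peak of 1947 bp on 4S at 13584240 to 13586186 likewise held 4, with 4 calls in each replicate. The peak on 9_10L at 114750738 to 114751949 held 4 intervals in 1212 bp, but these came from 3 calls in each replicate. Its series-wide count is thus higher than its number of separate calls.

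p300 covered a small part of most members. Of the 3902 p300 intervals that touched a member, 93.7% were centred in it and 85.1% lay wholly inside it. The p300 intervals covered a median of 17.9% of a member (quartiles 11.4 and 27.6%). Those centred in members had a median width of 227 bp, and the calls behind them 260 bp (replicate 1) and 328 bp (replicate 2). In broad domains the median was 258 bp, with replicate calls of 289 and 394 bp.

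The p300 intervals in members were narrower than those in broad domains in both replicates. The mean log2 ratio of the median widths was -0.18 ± 0.09 (SD over 9 pairs), below 0 in 9 of 9 pairs, with an exact p of 0.00391, the smallest this test can give, and an adjusted p of 0.00521. This corresponds to 0.885 of the width in broad domains. With the lists of replicate 1 alone the log2 ratio was -0.10 (1 of 9 pairs above 0, exact permutation p = 0.0195, adjusted p = 0.026). With those of replicate 2 alone it was -0.24. By chromosome the series-wide ratio was above 0 on 0 of 18, but it was as small as -0.003 on 3S and -0.006 on 4S. The widest p300 interval of any member, 1360 bp on 1L, was wider than the peak of 1121 bp at 153827154 to 153828274 that it touched. The next 2, on 7L at 82370709 to 82371942 (p300 of 1251 bp) and on 8S at 26261142 to 26261915 (p300 of 1144 bp), were also wider than their members of 1234 and 774 bp, whose replicate 1 H3K4me3 calls spanned 7052 and 6926 bp. Both of these members were thus of medium width in replicate 2 and broad in replicate 1.

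p300 lay toward the middle of the members. Of the 3656 p300 centres inside members, 65.4% (95% interval 63.8 to 66.9%) fell in the central 50% of the peak. Over the chromosome pairs this was 15.3 ± 2.82 percentage points above 50% (SD, 9 of 9 pairs, exact p = 0.00391, adjusted p = 0.00521). The rule asked only for an overlap and did not use the position. The excess was 15.7 and 16.2 percentage points with the lists of a single replicate for both targets. The centres lay a median of 394 bp from the nearer edge (quartiles 260 and 563.25 bp), and 6.51% lay within 100 bp of an edge.

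The central position was most marked in the narrower members. The share of centres in the central 50% was 72.3% for members of 600 to 1000 bp (n = 813 centres), 71.1% for 1000 to 1500 bp (n = 1251), 62.1% for 1500 to 2000 bp (n = 932) and 50.8% for 2000 to 2500 bp (n = 660). In broad domains it was 41.8% (n = 2149). The difference between the narrowest and the widest members, compared only once earlier values were known, was 21.5 ± 8.02 percentage points over 9 pairs (9 of 9 above 0, exact p = 0.00391, adjusted p = 0.00521 over 12 planned and added tests). It was 21.4 percentage points with the replicate 2 lists and 11.9 with the replicate 1 lists. The mean share over the pairs in members of 2000 to 2500 bp also varied with the list. It was 50.6% series-wide, 52.3% with the replicate 2 lists and 59.9% with the replicate 1 lists.

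In series-wide members of 2000 to 2500 bp the p300 centres were fewest at the edges and fewer in the middle than on either side of it. This shape was not tested. When such members were divided into 10 equal bins, bins 5 and 6 held 8.33% and 8.03% of the centres, bins 3 and 8 held 12.4% and 12.6%, and the outermost bins held 6.36% and 6.67%. The distance from the nearer edge rose with width, with medians of 271, 409, 518 and 567.5 bp in the 4 width bins and 764 bp in broad domains. This distance can be at most 50% of the width, so wider peaks allow larger values, and the rise is a description only. Members with 1 p300 interval had 68.4% of centres in the central 50% (n = 2850), against 55.0% for members with more than 1 (n = 806). Width and the number of p300 intervals moved together here, and their separate parts were not tested.

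**Figure D2:**
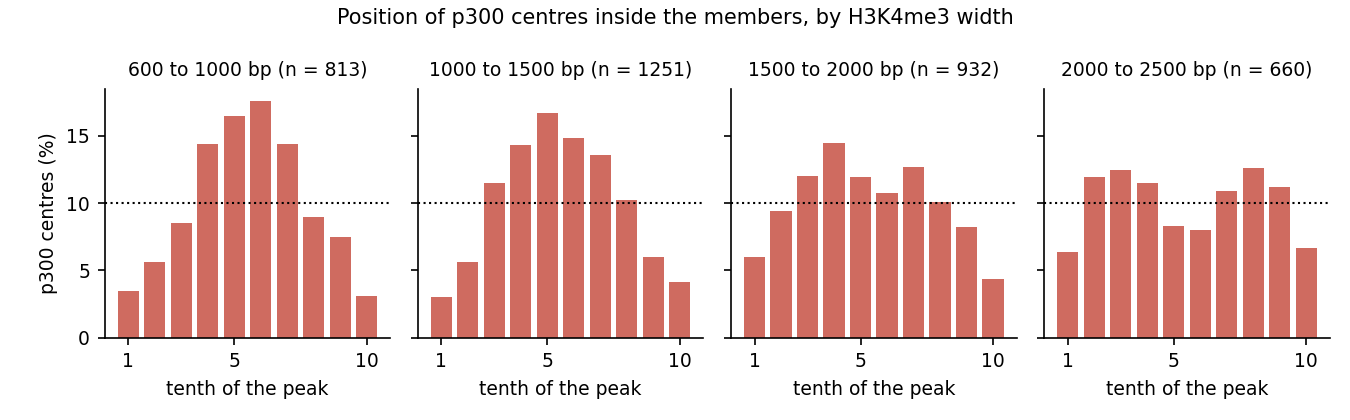
Share of p300 centres (%) in each of 10 equal bins along the member, in 4 classes of H3K4me3 width; n is the number of p300 centres and the dotted line marks the 10% of an even spread. The centres pile up in the middle of members of 600 to 1500 bp and lie on both sides of the middle in members of 2000 to 2500 bp. The shapes are those of the series-wide lists and were not tested.

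The side of the peak on which p300 lay varied with the distance to the next H3K4me3 peak. This comparison was added once earlier values were known and covers the 2850 members with 1 p300 interval centred inside. Where the nearest other H3K4me3 peak was under 2 kb away, 37.8% of the p300 centres (152 of 402) lay on the side facing it. At 2 to 10 kb the share was 56.0% (296 of 529), at 10 to 50 kb it was 58.2% (661 of 1135), and beyond 50 kb it was 50.9% (399 of 784). Members beside a close neighbour thus had p300 on the far side more often, and members with a neighbour at 2 to 50 kb had it on the near side more often.

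Over the 9 pairs the facing share was 12.9 ± 5.58 percentage points under 50% for gaps under 2 kb (a difference of -12.9, with 0 of 9 pairs above 0). It was 7.44 ± 2.57 percentage points over 50% for gaps of 2 to 50 kb (9 of 9). Both had an exact permutation p of 0.00391 and an adjusted p of 0.00521 over 12 tests. With the lists of replicate 1 or replicate 2 alone the values were -9.15 and -9.51 for the close gaps and 3.97 and 6.47 for the wider ones. The excess at 2 to 50 kb was thus smallest with the replicate 1 lists. Of 48 p300 intervals that touched a member with a close gap but were centred outside it, 11 lay on the facing side.

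Other H3K4me3 peaks lay closer to members than to medium peaks without p300. Another H3K4me3 peak stood within 10 kb of 34.8% of the members (1198 peaks) and of 23.7% of the medium peaks without p300 (2794 peaks). Within 2 kb the shares were 15.5% and 7.86%, and the median gap to the nearest peak was 20.9 kb for members and 28.6 kb for the others. The difference in the share within 10 kb was 11.2 ± 4.29 percentage points over 9 pairs (SD, 9 of 9 above 0, exact p = 0.00391, adjusted p = 0.00521), from 3.62 on pair 3 to 18.1 on pair 8. Replicate 1 lists gave 11.6 and replicate 2 lists 9.42 percentage points. The lowest value, 8.09, came with the p300 calls of replicate 1 alone. Series-wide peaks cut from the same replicate call counted as separate peaks here. Among peaks that were the single series-wide interval of their calls, the difference was 8.80 percentage points (29.5% against 20.7%). Close neighbours were not particular to members. Of the broad domains with p300, 38.2% had another H3K4me3 peak within 10 kb and 20.2% within 2 kb. Their median gap was 20.3 kb. Members were not tested against broad domains here.

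The members' neighbours were more often broad. Among nearest peaks within 10 kb, 14.2% of those of members were domains of 2500 bp or more, against 7.77% for medium peaks without p300. The narrow ones made up 33.6% and 29.1%, and the medium ones 52.3% and 63.2%. These shares were not tested.

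The nearest other H3K4me3 peak also held p300 more often beside a member. It did so for 31.5% of the members and 21.8% of the medium peaks without p300, and the rule had not used the p300 of the neighbour. The difference was 9.76 ± 2.83 percentage points over 9 pairs (9 of 9 above 0, exact p = 0.00391, adjusted p = 0.00521), and it was 6.09 with the p300 calls of replicate 2 alone. Where the neighbour was within 10 kb the shares were 39.6% and 21.8%, and where it was farther they were 27.2% and 21.7%. The share beside members thus differed with distance, and that beside medium peaks without p300 barely did. Broad domains with p300 showed the same pattern, which was thus not particular to members. Their share was 36.5%, with 49.9% within 10 kb and 28.3% beyond, and was not tested against that of members. Among all H3K4me3 peaks on these chromosomes 25.2% held p300, a share between those of the members and of the medium peaks without p300. Where 2 members are each other's nearest peak, both are counted, so these shares do not come from independent peaks.

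**Figure D3:**
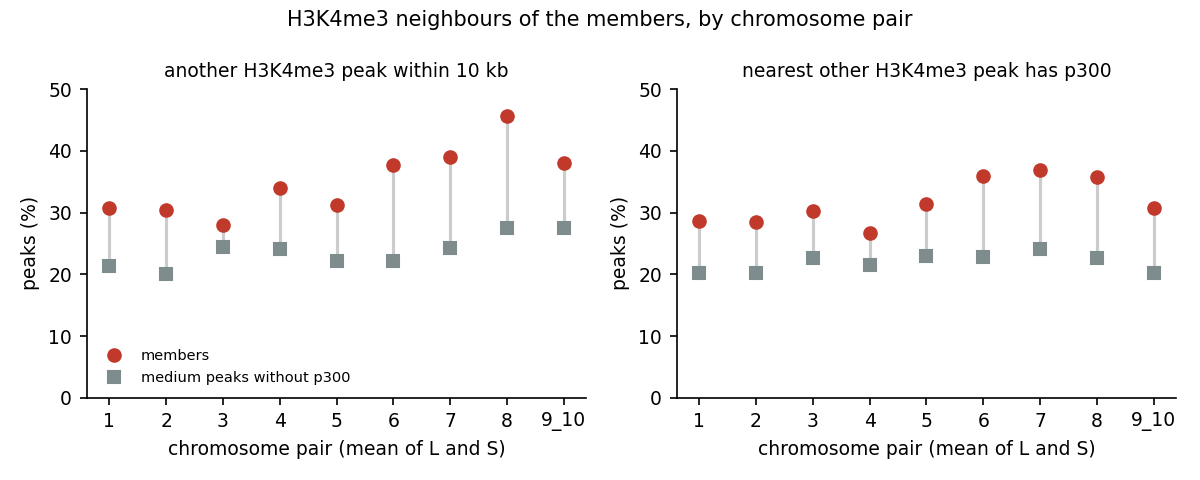
Percentage of peaks with another H3K4me3 peak within 10 kb (left) and of peaks whose nearest other H3K4me3 peak held p300 (right), for members (circles) and medium peaks without p300 (squares) on each of the 9 chromosome pairs, as the mean of L and S. The members lie above the other peaks on all 9 pairs in both panels, by 3.62 to 18.1 percentage points on the left.

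Some members formed short runs. In all, 312 members (9.06%) had another member within 10 kb, in 130 runs of 2, 12 of 3 and 4 of 4, and no run was longer. One of the 4 longest runs, on 5L from 17293657 to 17318723, placed 4 members with 1 p300 interval each within 25.1 kb. At the other extreme stood members far from any other H3K4me3 peak. A member of 797 bp on 2S at 43222 to 44018 lay 1048.74 kb from the next, but its p300 overlap was 13 bp. No H3K4me3 peak lay before it on that chromosome, so its gap is to 1 side only. A member of 1889 bp on 5S at 53345517 to 53347405 and one of 1025 bp on 5L at 134175976 to 134177000 lay 781 and 643 kb from the next and contained their p300 intervals whole. Their p300 intervals were 265 and 330 bp wide, and no series-wide p300 centre lay in their flanks.

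p300 was denser in the sequence around members as well. The flank was taken as 1 to 10 kb from each edge, outside every series-wide H3K4me3 peak. It could still hold stretches that only 1 replicate called as H3K4me3. p300 centres in the flank were not used by the rule. Members had 0.0280 p300 centres per kb of flank (Poisson 95% interval 0.0267 to 0.0294, from 1680 centres). Medium peaks without p300 had 0.0102 per kb (0.00978 to 0.0106, from 2131 centres), and broad domains with p300 had 0.0570 per kb (0.0540 to 0.0601, from 1358 centres). The members thus lay between both comparison sets. A centre between peaks that stand close together is counted for each of them, and all p300 values came from the same 2 libraries.

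Over 9 pairs the log2 ratio of flank density, members to medium peaks without p300, was 1.45 ± 0.24 (SD), or 2.73-fold, from 1.06 to 1.86, and above 0 in 9 of 9 pairs. Against broad domains with p300 it was -1.04 ± 0.26, or 0.486-fold, with 0 of 9 above 0. Both had an exact p of 0.00391 and an adjusted p of 0.00521. With widths matched in 4 bins the first value was 1.38, and for peaks with no other H3K4me3 within 10 kb it was 1.30. With the lists of replicate 1 alone for both targets it was 1.20, and with those of replicate 2 alone, which had the longer p300 list, it was 0.84. Against broad domains the replicate 1 lists gave -0.64. Broad domains with p300 also held more p300 intervals each, a mean of 1.63 against 1.04 to 1.26 in the 4 width bins of members. The part of this number in the difference was not tested. In flanks also outside the H3K4me3 calls of each replicate, the log2 ratio was 1.36 against medium peaks without p300 and -1.02 against broad domains. Mean density over the chromosomes was then 0.0220 per kb at members, 0.00842 at medium peaks without p300 and 0.0443 at broad domains. In the flanks used above these means were 0.0282, 0.0102 and 0.0576 per kb.

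Each p300 library gave the same order. With the classes kept, replicate 1 calls had 0.0348 per kb at members, 0.0143 at medium peaks without p300 and 0.0674 at broad domains. Replicate 2 calls had 0.0499, 0.0254 and 0.0915 per kb. Calls of a single replicate with no counterpart in the other were also denser around members than around medium peaks without p300. The values were 0.00674 against 0.00418 per kb for replicate 1 and 0.0226 against 0.0153 for replicate 2. Around broad domains these unshared calls were denser still, at 0.0109 and 0.0363 per kb. Their log2 ratios over the pairs, members to medium peaks without p300, were 0.64 and 0.56, less than that of shared p300. Regional differences in how readily either library yields a peak would also act on members and flanks alike; their part in the result was not tested.

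**Figure D4:**
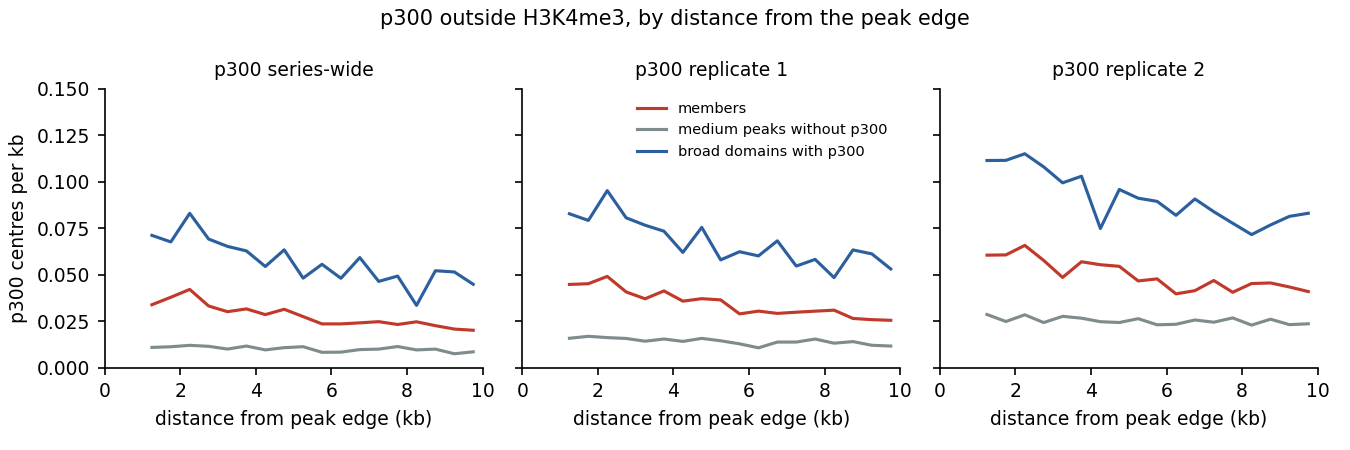
p300 centres per kb outside series-wide H3K4me3 peaks, against the distance from the H3K4me3 peak edge in kb. Steps are 500 bp from 1 to 10 kb, for the series-wide, replicate 1 and replicate 2 p300 lists. Members lie between medium peaks without p300 and broad domains with p300 in all 3 panels. In the series-wide list the members start at 0.0340 per kb in the step that begins at 1 kb. They are highest, at 0.0422, in the step that begins at 2 kb, and have 0.0202 in the one that ends at 10 kb.

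The flanking p300 was unevenly shared. Of the members, 2445 had no p300 centre in the flanks, 606 had 1, 244 had 2 and 148 had 3 or more. Those 148 held 34.9% of the flank centres. In all 29.0% of the members had at least 1, against 13.4% of medium peaks without p300 and 51.7% of broad domains. Most members thus had no further series-wide p300 centre at 1 to 10 kb outside H3K4me3 peaks. p300 inside other series-wide H3K4me3 peaks was not counted. At 475 members the nearest other H3K4me3 peak lay within 10 kb and held p300.

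The member with the most flanking p300, on 3L at 136472893 to 136474678, had 13 series-wide centres in its flanks, with 15 calls in replicate 1 and 13 in replicate 2, while it held a single p300 interval itself. Next came 4 members with 8 each, of which the first 2 by position were on 7L, at 92953436 to 92955442 and 93745498 to 93746775. Both had 8 or 9 calls in the separate replicates. These counts thus stood in both libraries.

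The flanks were denser around members that held more p300. The density was 0.0255 per kb for members with 1 p300 interval (0.0241 to 0.0269), 0.0460 for those with 2 (0.0408 to 0.0516) and 0.0577 for the 44 members with 3 or 4 (0.0417 to 0.0777). In a further comparison added in the same way, the log2 ratio of members with more than 1 to members with 1 was 0.81 ± 0.41 over 9 pairs. It was above 0 in 8 of 9, with an exact permutation p of 0.00781 and an adjusted p of 0.00937 over 12 tests. The log2 ratio was 0.60 with the replicate 1 lists (7 of 9 above 0) and 0.63 with the replicate 2 lists (9 of 9). Members with more p300 intervals were also wider, and the parts of width and p300 number were not tested. Of the 411 members with more than 1 interval, 106 touched a single p300 call in at least 1 replicate. Another H3K4me3 peak stood within 10 kb of 33.2% of members with 1 p300 interval, 45.5% of those with 2 and 52.3% of those with 3 or 4 (95% interval 37.9 to 66.2%).

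Flank density did not rise steadily with the width of the members. It was 0.0327 per kb for members of 600 to 1000 bp, 0.0226 for 1000 to 1500 bp, 0.0270 for 1500 to 2000 bp and 0.0345 for 2000 to 2500 bp. The lowest and highest of these had Poisson intervals of 0.0206 to 0.0247 and 0.0309 to 0.0383. These intervals cover counting error only and treat centres as independent, although a centre can be counted for several members. The differences between the width bins were not tested. Medium peaks without p300 had 0.00942, 0.00883, 0.0116 and 0.0161 per kb in the same bins. The narrowest members also most often had another H3K4me3 peak within 10 kb, at 42.4%, against 31.0 to 33.0% in the wider bins.

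The homeologous chromosomes carried p300 in like shares of their medium peaks. On L chromosomes 1948 members made up 22.7% of the medium peaks, and on S chromosomes 1495 made up 22.5%. The difference, L minus S, was 0.02 ± 2.18 percentage points over 9 pairs (5 of 9 above 0, exact p = 0.984, adjusted p = 0.984), and the pairs ran from -3.73 on pair 8 to 3.48 on pair 9_10. A p of this size does not show that the shares are equal.

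By count the members were more numerous on L. The log2 ratio of L to S counts was 0.38 ± 0.18 and above 0 in 9 of 9 pairs, from 0.07 to 0.62. Medium peaks as a whole were also more numerous on the L chromosome of every pair, as with 1312 on 1L and 916 on 1S. The excess on L was thus not particular to members. Per Mb of the span that the peak lists cover it was 0.11 ± 0.22, above 0 in 6 of 9. These ratios are given without a test. The members' share of medium peaks ran from 18.9% on 9_10S (16.3 to 21.8%) to 28.6% on 7S (24.9 to 32.6%). Chromosome pair 7 had the highest share on both homeologs, with 26.3% on 7L, and it also had the densest flanks, at 0.0467 per kb on 7L and 0.0438 on 7S. Member density ran from 1.01 per Mb on 1S to 1.92 per Mb on 8S.

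**Figure D5:**
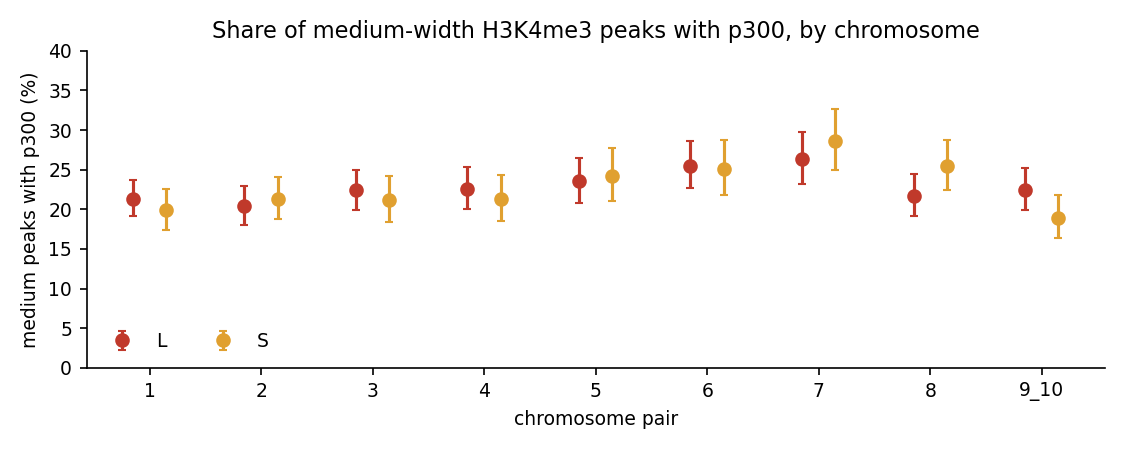
Percentage of medium-width H3K4me3 peaks that held p300 on each L and S chromosome of the 9 pairs; bars are Wilson 95% intervals, which cover counting error only. The values run from 18.9% on 9_10S to 28.6% on 7S, and neither L nor S is higher throughout.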

How the data were processed

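Per the submitters' processing notes, MACS2 2.1.0.20140616, BWA 0.7.10-r789 and bedtools were used. Not given in the sources used here are their settings, the genome build, the peak threshold and the control. The authors deposited 6 peak lists, 1 for each of 4 samples and 1 series-wide list per target, with positions and no score. All 24948 H3K4me3 and 25010 p300 series-wide intervals equalled an intersection of replicate calls. The gene table at hand describes another build and was not used.

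Overlaps, flanks and gaps were computed with numpy 2.4.6 and scipy 1.17.1 in Python 3.11.15, and figures drawn with matplotlib 3.10.9. p300 was placed by its centre. Differences were averaged over L and S within each of 9 chromosome pairs and tested by flipping the signs of the pair differences in all ways (exact permutation, two-sided), with 0.00391 as the smallest p. It measures regularity across chromosomes, not across embryos, and neighbouring peaks are not independent. Benjamini-Hochberg adjustment covered 8 planned tests, or 12 with 4 added ones, with a threshold of 0.05. Intervals cover counting error only. The functions were tested on simulated data.

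The members and lists were chosen with earlier results of these data known. Named regions are the 3 members with the most p300 intervals (ties by flanking p300, then by position), the most flanking p300, the widest p300 and the largest gap to other H3K4me3, and those at each bound of the rule. Alternatives changed the replicate lists, overlap, widths, flanks, single intervals and the unit of the test.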

Additional observations from a re-analysis of the deposited data

Results flagged for a closer look

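Sequence outside the L and S chromosomes entered none of the comparisons, and it also held medium-width H3K4me3 peaks with p300. On the scaffolds there were 258 of them among 1244 medium-width H3K4me3 peaks, a share of 20.7% (Wilson 95% interval 18.6 to 23.1%). The labels do not place these scaffolds on L or S chromosomes, so no comparison by chromosome pair includes them.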

How the results depend on the processing

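The agreement between replicates on the extent of a peak was the only planned result to lose its call or its direction under an alternative. Its difference of -1.05 percentage points became -0.89 with p300 of replicate 2 alone, -0.65 where 50% of the p300 interval had to lie inside, -1.02 for widths of 800 to under 2000 bp and -1.05 with 18 chromosomes as the unit (exact permutation test, adjusted p = 0.0515), none of them past the threshold. It turned to 0.13 for peaks that were the single interval of their calls. Its call held in 4 of 10 alternatives, among them widths matched in 4 bins, where it was -2.14. Leaving out either replicate gave -2.93 to -0.30. The flank density against medium peaks without p300 kept its call throughout, at log2 values of 0.56 to 1.58. It moved by over 1.5 times to 0.84 without replicate 1 or with p300 of replicate 2 alone, to 0.74 in flanks of 10 to 50 kb, and to 0.64 and 0.56 with unshared calls in the flanks. The labels do not say that same-numbered libraries of the 2 targets share embryos. Pairing them by number (a replicate block) gave 1.02 and changed no call. Without replicate 2 the flank density against broad domains was -0.64 and the p300 width -0.10. These and the other planned results kept their direction and call, including the L minus S share, which passed in none (0.09 to 0.58). The causes were not tested. Absence of p300 means no call shared by both libraries, and with read depth unknown it does not show that p300 was not there.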
